A study of Rattus norvegicus with 6 samples.

Results

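Neuropeptides are short signalling peptides that sensory neurons cut from larger precursor proteins, pack into dense core vesicles and release to act on G protein-coupled receptors. Injury of a peripheral nerve is known to change which peptides the cell bodies in the dorsal root ganglia (DRG) make. The precursors described here are those of neuropeptide Y (Npy, and the neighbouring row LOC100912228, listed in the table as pro-neuropeptide Y-like), galanin (Gal), vasoactive intestinal peptide (Vip), pituitary adenylate cyclase-activating polypeptide (Adcyap1), neurotensin (Nts), cholecystokinin (Cck) and corticotropin releasing hormone (Crh). They were taken by gene symbol and make up 8 of the 43350 gene rows of the deposited table. Where several rows carried a symbol, as for Adcyap1, the protein-coding row was used.

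The samples were ipsilateral lumbar DRG of male Sprague-Dawley rats, which had been acquired at 6 to 8 weeks of age. Rats of the chronic constriction injury (CCI) group (n = 3) carried loose absorbable ligatures around the left sciatic nerve, and in those of the sham group (n = 3) the nerve was exposed but not tied. The sample labels themselves give no treatment for the sham rats. All rats were sampled on day 11 after surgery, with 1 rat per library by the study's methods (the labels speak of pooled samples). Each library mixes neurons, glia, vessels and immune cells, and injured neurons with neurons the ligature spared. In such bulk tissue, more cells that contain a transcript and more transcript per cell cannot be told apart. The libraries held 75423546 to 87615743 counted reads, and 3 counts, used as the detection floor, corresponded to 0.0342 to 0.0394 CPM (counts scaled to the effective library size). With 3 rats against 3, an exact permutation test cannot go below p = 0.1, so p-values come from 1 edgeR quasi-likelihood fit over 26663 rows whose mean FPKM (fragments per length and depth) reached 0.5.

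After CCI, 5 of the 8 rows were higher: Npy, LOC100912228, Gal, Vip and Adcyap1. Each passed an unadjusted p under 0.05 with a log2 fold change of at least 0.58, limits that 2.57% of all rows tested passed in that direction and 1.26% passed downwards, where none of the 7 tested neuropeptide rows did. In each of these 5 rows the lowest CCI rat lay above the highest sham rat, which was so for 8.63% of rows tested. With p-values adjusted over the whole table, Npy, LOC100912228 and Gal remained under 0.05, as did 0.0638% of rows upwards and 0.03% downwards. Nts and Crh did not pass. Cck lay under the expression filter, and Vip passed the filter only through its CCI libraries.

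**Figure D1:**
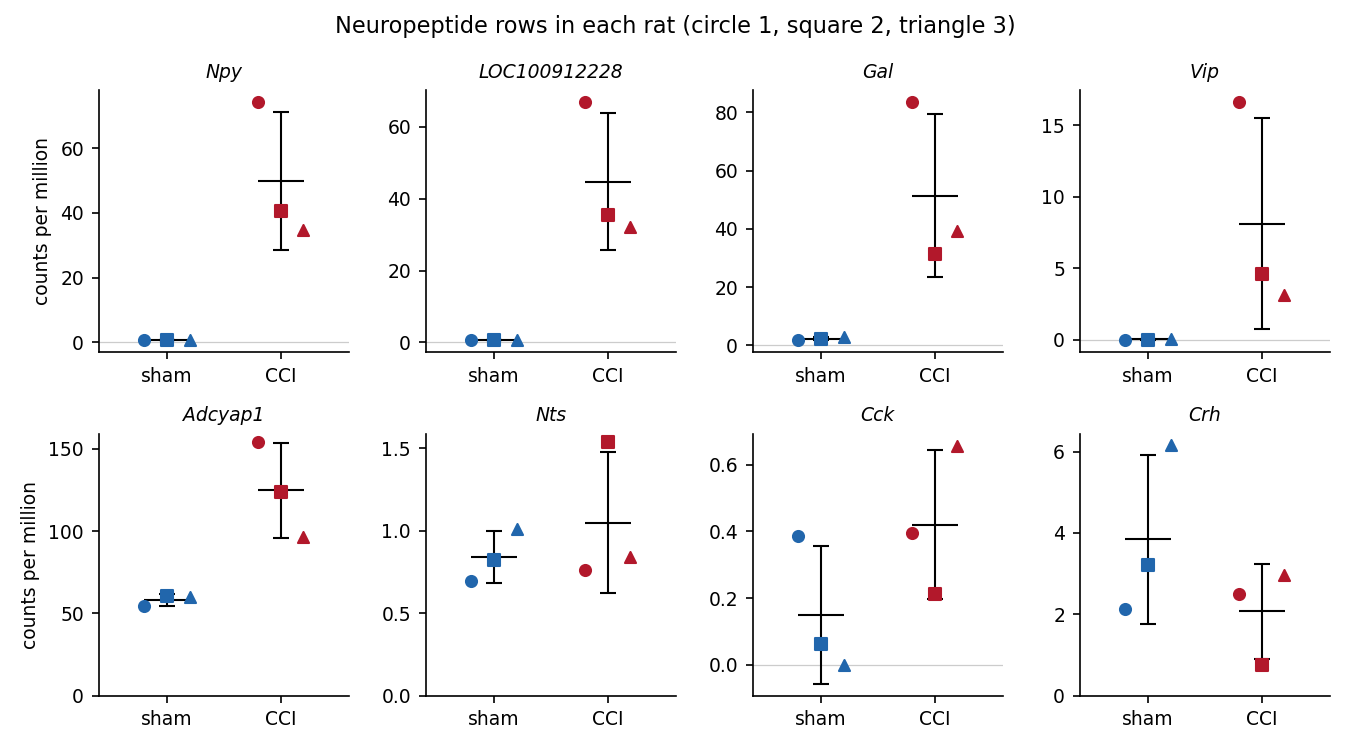
CPM of the 8 neuropeptide rows (y axis, linear, a scale for each panel) in sham (blue) and CCI (red) rats, with 1 symbol per rat and the mean with SD of 3 rats in black. In the panels of Npy, LOC100912228, Gal, Vip and Adcyap1 every CCI rat lies above every sham rat and CCI rat 1 is highest, while the groups overlap in Nts, Cck and Crh.

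Neuropeptide Y dampens transmitter release through inhibitory receptors, and its gene is known as nearly silent in most sensory neurons of an intact DRG. The Npy row (chromosome 4, 79573998 to 79581208, plus strand, in the genome the study calls V101) measured 74.2, 40.7 and 34.8 CPM in CCI rats 1, 2 and 3 and 0.775, 0.643 and 0.702 CPM in sham rats 1, 2 and 3. The sham rats lay close together, whereas CCI rat 1 was 2.13 times CCI rat 3. The group means were 49.9 ± 21.2 and 0.707 ± 0.0658 CPM (SD, n = 3). On the log2 scale the difference was 6.14 (standard error 0.36, adjusted p = 0.0049). Leaving out single libraries kept it between 5.74 and 6.34, and the adjusted p passed 0.05 only without sham rat 1, where it was 0.0515.

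The LOC100912228 row (chromosome 4, 79557854 to 79565097, plus strand) lies on the same strand with 8900 bases and 0 other rows between it and Npy, and the rows are of similar length, 7244 and 7211 bases. It measured 66.7, 35.4 and 32 CPM in CCI rats 1, 2 and 3 and 0.661, 0.618 and 0.678 CPM in the sham rats, in the same order of CCI rats as Npy. On the log2 scale it differed by 6.09 (standard error 0.35, adjusted p = 0.0049), and this row too missed the adjusted threshold without sham rat 1 (adjusted p = 0.0516). Of the reads on the pair, Npy held 52.6%, 53.5% and 52.2% in the CCI rats and 54.0%, 51.0% and 50.9% in the sham rats. The split was thus nearly even in every library, at 100 reads in sham rat 2 and at 11431 reads in CCI rat 1. In the RefSeq annotation of the later assembly GRCr8, Npy lies between LOC134486578 and LOC102555694. How reads matching both rows were assigned is not given in the sources used here, so the rows need not be 2 separate changes. Summed into 1 row, they measured 94.6 ± 40.3 CPM after CCI and 1.36 ± 0.0890 CPM after sham surgery (SD, n = 3), and the fit gave a log2 fold change of 6.12 (adjusted p = 0.0052).

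**Figure D2:**
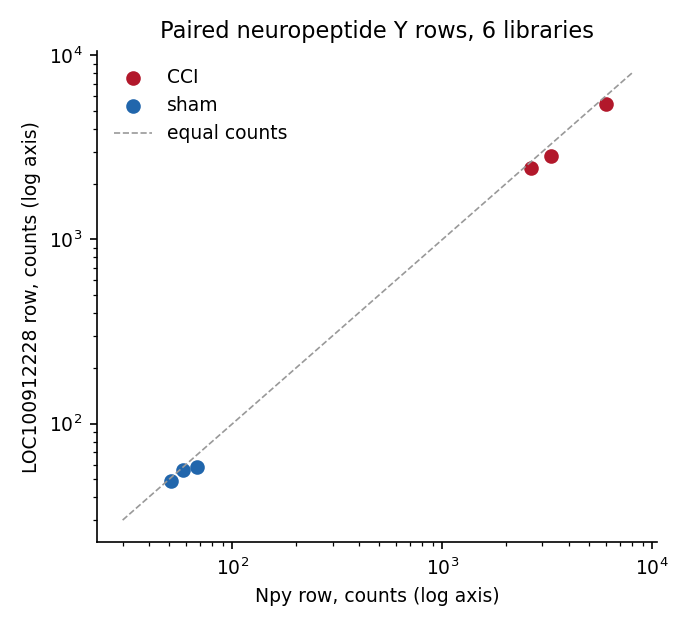
Counts on the Npy row (x axis, log scale) against counts on the LOC100912228 row (y axis, log scale), 1 point per library, with a dashed line at equal counts. The 3 sham libraries sit at 51 to 68 Npy counts and the 3 CCI libraries at 2650 to 6018, all close to the line.

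The start of the Npy gene was read from RefSeq for GRCr8 to show whether it carries letters bound by AP-1 and CREB/ATF factors, which many injury- and activity-responsive genes share. Both strands were searched in a window from 250 bases before to 50 bases after the start, for the cAMP response element TGACGTCA, its first letters TGACGTC and TGACG, the AP-1 site TGACTCA and its first letters TGACTC. A longer motif always contains its shorter form. Windows were found for 5 of the 8 rows, Npy, Gal, Vip, Adcyap1 and Nts, among 33469 windows in all. These short stretches, 30 bases each on the strand of the gene, carry the matches in capitals, and positions count from the first base of the gene.
Npy, TGACTC read on the opposite strand, position -72, chr4:80212027-80212056: aagtggctgtggGAGTCAcccgggcgtgac
Gal, TGACG, position -63, chr1:210084618-210084647: gcgctgagcgggTGACGcggcagctcccac
Gal, TGACTC, position -193, chr1:210084748-210084777: aacagtgggaagTGACTCtgtgatgcaggg
Vip, TGACGTC, position -97, chr1:44470372-44470401: gatcaccactgTGACGTCtttcgaggagcc
Nts, TGACG read on the opposite strand, position -171, chr7:39461042-39461071: attagggaagatCGTCActttcaatcaagg
Nts, TGACTCA read on the opposite strand, position -212, chr7:39461082-39461111: aaccctttccgTGAGTCAgaaaccctgagc
The complete element TGACGTCA was in 1.83% of all windows and in 0 of the 5. TGACGTC was in 3.22% of all windows and in that of Vip, and TGACTCA was in 4.63% and in that of Nts, a gene whose level overlapped between the groups. The shorter TGACG was in 21.2% of all windows and TGACTC in 14.8%, each in 3 of the 5. The Adcyap1 window held none of these motifs. The TATA motif TATAAA, searched beside them, was in 14.2% of all windows and in those of Gal, Vip and Adcyap1. These matches describe letters in 300 bases and are not evidence of binding.

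Galanin is a peptide with inhibitory and growth-related actions on sensory neurons. The Gal row (chromosome 1, 218652917 to 218657925, minus strand) measured 83.4, 31.4 and 39.4 CPM in CCI rats 1, 2 and 3 and 1.90, 2.08 and 2.86 CPM in sham rats 1, 2 and 3. CCI rat 1 was 2.66 times CCI rat 2, and the lowest CCI rat was 11 times the highest sham rat. The means were 51.4 ± 28 and 2.28 ± 0.508 CPM (SD, n = 3), 4.49 apart on the log2 scale (standard error 0.43, adjusted p = 0.0383). The fold change stayed between 3.95 and 4.75 with single libraries left out. The adjusted call was kept without CCI rat 1 (adjusted p = 0.00611) and lost without any other library, with adjusted p from 0.0569 without CCI rat 3 to 0.163 without sham rat 1.

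Vip and Adcyap1 encode related peptides of the secretin family that share receptors and raise cyclic AMP in their target cells. The Vip row (chromosome 1, 42169501 to 42177582, plus strand) had 1344, 374 and 240 counts in CCI rats 1, 2 and 3. Sham rats 1 and 2 had 0 counts, which allows up to 0.0342 and 0.0379 CPM, and sham rat 3 had 8 counts. Vip was therefore at or near the floor after sham surgery and measured 8.12 ± 7.35 CPM after CCI (SD, n = 3), the widest spread relative to its mean of the 5 raised rows (coefficient of variation 90.5%), with CCI rat 1 at 5.25 times CCI rat 3. The lowest CCI rat was 32.6 times sham rat 3. The log2 fold change was 7.91 (standard error 1.27, unadjusted p = 0.000581 and adjusted p = 0.109 in the edgeR fit). Its size depends on how values near 0 are treated: it was 2.07 with limma on log2(FPKM + 1), and without sham rat 3 the CCI mean was at least 225-fold higher than the floor of 3 counts per library.

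Unlike Vip, Adcyap1 (chromosome 9, 121706979 to 121725716, minus strand) was well detected in every sham rat. It measured 154, 124 and 96.3 CPM in CCI rats 1, 2 and 3 and 54.2, 60.8 and 59.9 CPM in sham rats 1, 2 and 3. The groups did not overlap, and the means of 125 ± 28.9 and 58.3 ± 3.55 CPM (SD, n = 3) lay 1.10 apart on the log2 scale (standard error 0.17, unadjusted p = 0.000412 and adjusted p = 0.103 in the edgeR fit). The fold change was 0.92 without CCI rat 1 and 1.25 without CCI rat 3. The adjusted p of the edgeR fit was 0.046 without CCI rat 3 and 0.106 to 0.298 with any other library left out. A second row with the symbol Adcyap1, an assembled stretch with no strand given that starts 360 bases beyond the 3′ end of the gene, had 1833, 1492 and 1098 counts in the CCI rats and 607, 596 and 663 in the sham rats. It ordered the CCI rats in the same way, and differed by 1.31 on the log2 scale (standard error 0.17, adjusted p = 0.0789).

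Neurotensin, cholecystokinin and corticotropin releasing hormone, peptides best known from brain and gut, were scarce in both groups. Nts (chromosome 7, 44111151 to 44121130, minus strand) had 62, 124 and 64 counts in CCI rats 1, 2 and 3 and 61, 65 and 83 in sham rats 1, 2 and 3. The groups overlapped apart from CCI rat 2, and the log2 difference, 0.32 (standard error 0.35, adjusted p = 0.829), went to -0.06 without that rat. Crh (chromosome 2, 104459999 to 104461863, minus strand) had 203, 61 and 225 counts in the CCI rats and 188, 255 and 509 in the sham rats. The groups overlapped, and the log2 difference, -0.89 (standard error 0.58, adjusted p = 0.674), was -0.37 without sham rat 3 and -0.49 without CCI rat 2. Cck (chromosome 8, 130120523 to 130127392, minus strand) had 32, 17 and 50 counts in the CCI rats and 34, 5 and 0 in the sham rats. Sham rat 1 lay between the CCI rats, and in the fit without the expression filter the log2 fold change of 1.47 had a standard error of 1.24 (adjusted p = 0.753). Crh varied widely between rats in both groups, with coefficients of variation of 56.1% after CCI and 54.2% after sham surgery.

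**Figure D3:**
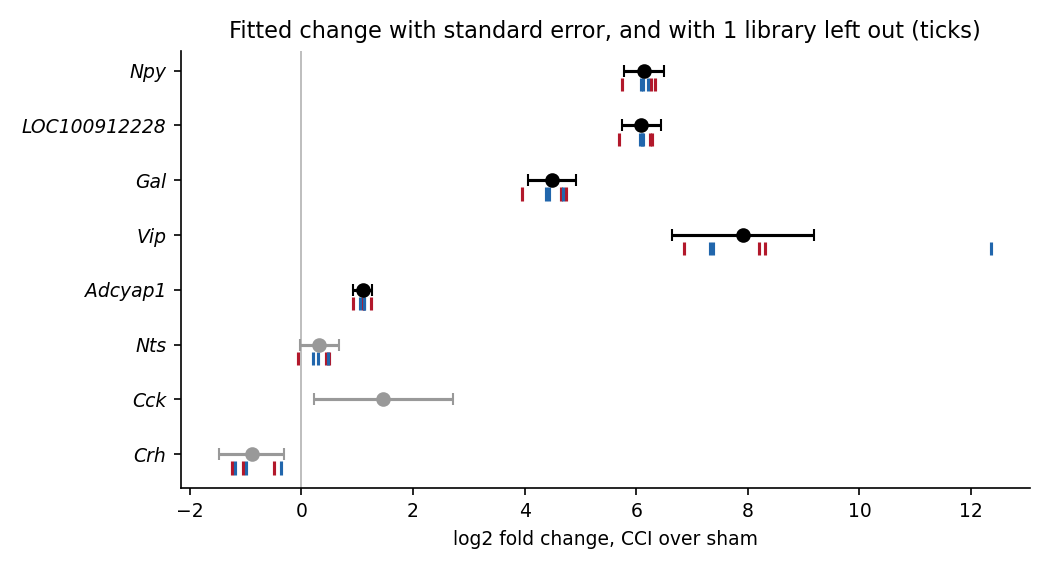
Log2 fold change of CCI over sham (x axis) for each neuropeptide row with its standard error, black where it passed the limits and grey where it did not, and ticks below for fits without 1 CCI library (red) or 1 sham library (blue). Cck is from the fit without the expression filter. Npy, LOC100912228, Gal and Adcyap1 keep close to their values, the ticks of Nts lie on both sides of 0, and the Vip tick at 12.36 is a fit against 2 sham libraries with 0 counts.

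The CCI rats differed more among themselves than the sham rats did in most of the raised rows. The coefficient of variation of CPM was 42.5% after CCI and 9.31% after sham surgery for Npy, 54.5% and 22.3% for Gal and 23.1% and 6.09% for Adcyap1. CCI rat 1 was the highest in all 5 raised rows, and CCI rat 3 was the lowest in all but Gal, where CCI rat 2 was. None of the 3 other rows had CCI rat 1 highest, since it was CCI rat 2 for Nts and CCI rat 3 for Cck and Crh. All 5 rows passed the unadjusted limits with any 1 library left out.

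On the FPKM scale, which allows levels to be compared between genes, the order of the precursors changed. After sham surgery Adcyap1 was the most abundant of the 8 rows at 18.3 ± 0.986 FPKM, followed by Crh (2.89 ± 1.56), Gal (2.44 ± 0.527), Npy (1.10 ± 0.114), LOC100912228 (0.962 ± 0.0508), Nts (0.548 ± 0.0977), Cck (0.136 ± 0.189) and Vip (0.0148 ± 0.0255; SD, n = 3 for each). In this order Crh and Gal overlapped in their rats. Npy and LOC100912228 met at 0.994 FPKM, and Cck and Vip overlapped. After CCI the order was Npy (79.3 ± 33.4), LOC100912228 (67.3 ± 28.6), Gal (55.6 ± 30.1), Adcyap1 (39.6 ± 9.0), Vip (4.0 ± 3.62), Crh (1.58 ± 0.889), Nts (0.694 ± 0.284) and Cck (0.385 ± 0.213). The ranges of neighbours in this order overlapped between rats, except those of Adcyap1 and Vip. Within single rats, however, Npy lay above LOC100912228 in every CCI and sham rat, at 1.10 to 1.23 times its FPKM. LOC100912228 lay above Gal in every CCI rat (100 and 90.0, 53.3 and 34.0, 48.4 and 42.9 FPKM).

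Among 12988 tested protein-coding rows, Npy moved from rank 11692 by mean FPKM after sham surgery to rank 378 after CCI, Gal from 9773 to 599 and Adcyap1 from 2150 to 906. Vip stood at rank 7999 after CCI, and its rank after sham surgery has no meaning, since the filter kept it only through the CCI libraries. The 42 peptide precursors with a row of their own were also ordered by group mean FPKM, with Npy and LOC100912228 as separate rows. Among these separate rows Calca, which encodes calcitonin gene-related peptide, and Tac1, which encodes substance P, held the first and the second place in both groups. In CCI rat 1 alone, however, Tac1 (88.7 FPKM) lay below Npy (118), LOC100912228 (100) and Gal (90.0). Added up, the FPKM of the Npy and LOC100912228 rows exceeded that of Tac1 in every CCI rat and stayed below that of Calca. Npy, LOC100912228 and Tac1 measured 64.8, 53.3 and 96.8 FPKM in CCI rat 2 and 55.7, 48.4 and 93.5 FPKM in CCI rat 3. Calca measured 291, 291 and 303 FPKM in CCI rats 1, 2 and 3. The place of Tac1 after CCI thus depended on keeping the rows separate. The summed level of Calca and Tac1 was 380 to 396 FPKM after CCI and 393 to 435 FPKM after sham surgery. Npy, LOC100912228 and Gal stood at places 12, 13 and 8 after sham surgery and at places 3, 4 and 5 after CCI. The 8 rows made up 5.03% to 5.82% of the summed precursor FPKM in the sham rats, and 45.8%, 30.6% and 28.7% in CCI rats 1, 2 and 3. Without LOC100912228 the shares were 4.83% to 5.63% and 22.8% to 38.1%.

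**Figure D4:**
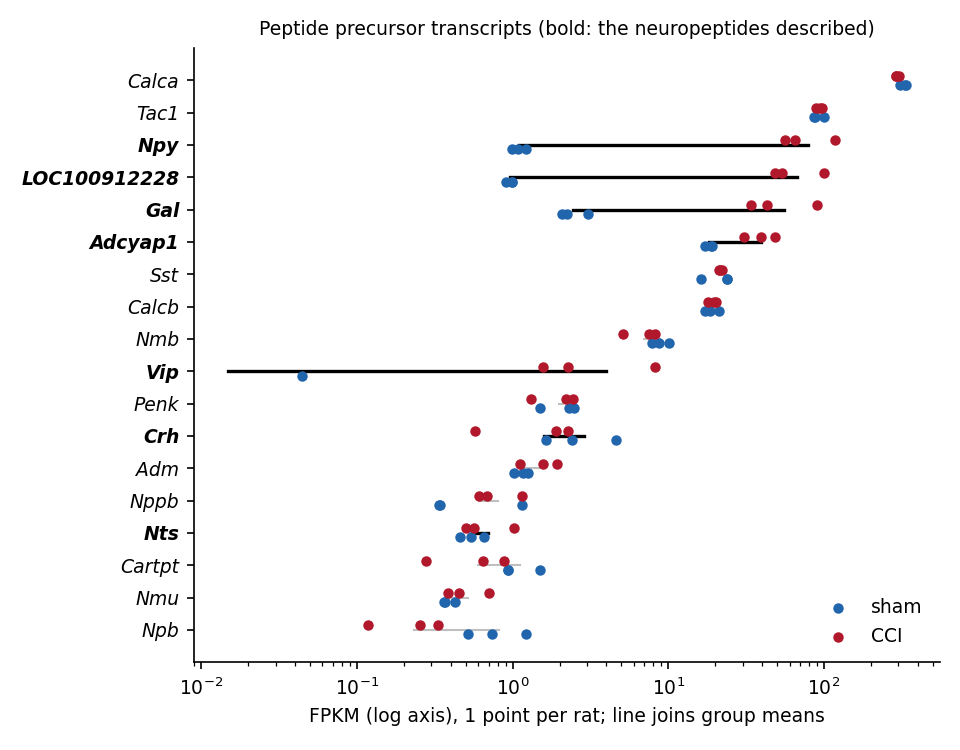
FPKM (x axis, log scale) of the peptide precursors with a group mean of at least 0.5 FPKM, 1 point per rat (sham blue, CCI red), with a line between the group means and the neuropeptides described here in bold. By group mean, Npy, LOC100912228, Gal, Vip and Adcyap1 shift to the right while Calca and Tac1 stay the 2 highest single rows. The 2 sham rats with 0 Vip counts have no point.

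Of 18 genes listed for the receptors through which these peptides act, 15 were found by symbol and 11 tested. Of these, 2 were called higher and 0 lower, beside 2.57% and 1.26% of all rows tested. Their median log2 fold change was 0.12, beside 0.01 over all rows tested. The first was Cckbr, the receptor for cholecystokinin and gastrin, with 753, 312 and 223 counts in CCI rats 1, 2 and 3 and 57, 34 and 7 in sham rats 1, 2 and 3. Like Vip, Cckbr passed the expression filter only through its CCI libraries (2.22 FPKM after CCI and 0.157 after sham surgery), so its place among the genes tested depended on its being high there. The groups did not overlap, and the log2 fold change was 3.78 (standard error 0.78, unadjusted p = 0.00226 and adjusted p = 0.173 in the edgeR fit). The second was Npy2r, an inhibitory NPY receptor of nerve endings, at 28.1, 19.8 and 16.9 CPM in the CCI rats and 8.88, 10.5 and 10.7 CPM in the sham rats (log2 fold change 1.11, standard error 0.20, adjusted p = 0.135). In both receptors CCI rat 1 was highest, as in the raised peptides, and the unadjusted call held without any 1 library. Npy1r, another NPY receptor, measured 44.5 ± 6.62 and 33.2 ± 4.33 CPM (SD, n = 3) and missed the size limit with a log2 fold change of 0.42. Galr1, a galanin receptor, was at -0.33, Vipr2, a receptor shared by VIP and PACAP, at 0.15, and Adcyap1r1, the receptor selective for PACAP, at -0.35, none of them called. Sort1, which binds neurotensin among other ligands, was the most abundant of the list at 17.9 FPKM after CCI and 18.9 FPKM after sham surgery and was not called.

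None of the 12 genes for peptide processing was called in either direction (median log2 fold change -0.06). They included the prohormone convertases Pcsk1 (120 ± 2.01 and 114 ± 11.3 CPM, SD, n = 3) and Pcsk2 (123 ± 3.96 and 138 ± 9.68 CPM), the carboxypeptidase Cpe (182 ± 6.88 and 191 ± 8.06 CPM) and the amidating enzyme Pam (190 ± 5.32 and 191 ± 4.25 CPM), CCI first in each. The abundant Scg5, a chaperone of Pcsk2, and Pcsk1n, an inhibitor of Pcsk1, were not called either. Of 16 genes for dense core vesicle cargo and release, 0 were called, with a median of -0.04. Within that list Chga, the granin that gives the vesicles their dense core, measured 61.1 ± 2.34 CPM after CCI and 88 ± 6.0 CPM after sham surgery (log2 fold change -0.52, adjusted p = 0.0789), and Syt4, a vesicle synaptotagmin, 413 ± 65.8 and 285 ± 16.8 CPM (log2 fold change 0.54, adjusted p = 0.201). Both missed the size limit of 0.58. Of 9 tested enzymes that degrade peptides, such as Mme, Ece1 and Lnpep, 0 were called (median -0.09).

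Of 8 tested genes for peptides that sensory neurons make without injury 0 were called, and the median log2 fold change was 0.01. Calca measured 421 ± 8.07 CPM after CCI and 467 ± 25.2 CPM after sham surgery (SD, n = 3; log2 fold change -0.15), Tac1 120 ± 4.98 and 118 ± 10.2 CPM, and Sst, which encodes somatostatin, 14.5 ± 0.247 and 14.3 ± 2.92 CPM. Of 28 further precursors listed, 3 were tested, and the level of 1 of these, Npff, cannot be separated from Atf7 because the row joins the genes. Npb, which encodes neuropeptide B, was called lower on few reads, with 9, 4 and 10 counts after CCI and 18, 24 and 41 after sham surgery (log2 fold change -1.77, adjusted p = 0.366), and lost the call without CCI rat 2 or sham rat 3. Cartpt, the third, was not called (log2 fold change -0.92, adjusted p = 0.562).

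Transcription factors known to respond to nerve injury were listed because several of them bind the motifs searched above. Of 17 tested, 4 were called higher and 0 lower, beside 2.57% and 1.26% of all rows tested. Their median log2 fold change was 0.45, beside 0.01 over all rows tested. Atf3, a stress-induced ATF factor, measured 117, 67.4 and 53.8 CPM in CCI rats 1, 2 and 3 and 6.32, 8.00 and 7.18 CPM in the sham rats, the same order of CCI rats as in Npy and Vip (log2 fold change 3.47, standard error 0.31, adjusted p = 0.0296). Jun, an AP-1 subunit, measured 167, 133 and 119 CPM in the CCI rats and 65.9, 67.3 and 68.1 CPM in the sham rats (log2 fold change 1.06, standard error 0.12, adjusted p = 0.0712). Sox11, a factor of immature and regrowing neurons, rose from 2.75 ± 0.671 to 10.6 ± 4.84 CPM (SD, n = 3; unadjusted p = 0.00128 and adjusted p = 0.142 in the edgeR fit). Crem, a CREB family member, was called at a log2 fold change of 0.75 and lost the call without any 1 library except CCI rat 3.

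As a description of likeness, the protein-coding rows were ordered by Pearson's r of log2(CPM + 0.1) with each neuropeptide row over the 6 libraries. Since the libraries fall into 2 groups and share their depth and scaling, r only orders the genes. For Npy the closest after LOC100912228 were Chdh and Ddah1 (r = 0.999 and 0.998), whose own log2 fold changes were 0.38 and 0.19. For Gal they were Cdk15, Ctss and Stac2 (r = 0.998, 0.996 and 0.996), of which Stac2 had a log2 fold change of 4.4. For Vip they were A3galt2, LOC103690002 and Csrnp1 (r = 0.998, 0.998 and 0.997), and for Adcyap1 Coq8b, Gpc1 and Dsp (r = 0.997, 0.996 and 0.996). Nts was closest to Naxd, Wdr45b and Oard1 (r = 0.990, 0.979 and 0.976), and Crh to Tmem184b, Cipc and Gabrb2 (r = 0.977, 0.974 and 0.971). The closest rows thus included genes with small and with large changes.

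**Figure D5:**
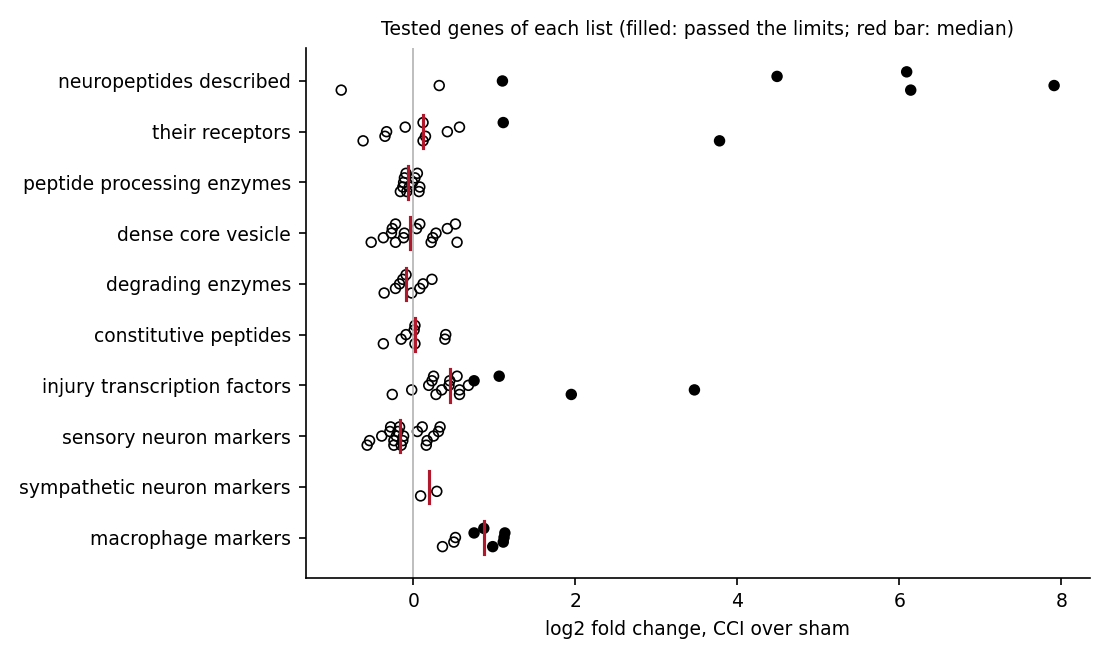
Log2 fold change of CCI over sham (x axis) of the tested genes of the lists drawn (1 circle per gene), filled where a gene passed the limits. A red bar marks the median of each list other than the neuropeptides described. Not every list is drawn: skeletal muscle markers and the further precursors, which held all list genes called lower, are left out. The medians of the peptide processing, dense core vesicle and degrading genes lie close to 0, with no filled circle in these lists. Single dense core vesicle genes spread from -0.52 (Chga) to 0.54 (Syt4). Filled circles lie to the right among the neuropeptides described (5), receptors (2), injury transcription factors (4) and macrophage markers (6). None lies to the left in the lists drawn.

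Marker genes were read for the cell types the tissue could hold. All 20 sensory neuron markers were tested and 0 were called, although their summed CPM was 18500 to 20300 in the CCI rats and 21600 to 22200 in the sham rats, without overlap. This sum weighs abundant genes most and is not a count of neurons. Nefl measured 3410 CPM after CCI and 5080 CPM after sham surgery, Nefh 2390 and 3490, and Tubb3 2680 and 2170. The members differed in direction: the neurofilament Nefl was lower at a log2 fold change of -0.57 (adjusted p = 0.0457) and Nefh, another neurofilament, stood at -0.54, while Tubb3, Stmn2 and Prph, also of the neuronal cytoskeleton, stood at 0.31, 0.33 and 0.25, with no overlap of the groups in any of these 5 genes. Sympathetic neurons are a known source of Npy, and a part of theirs in the Npy reads was not tested. Of their enzymes of noradrenaline synthesis, Dbh had 0, 6 and 0 counts in the CCI rats and 0, 8 and 0 in the sham rats, and Th had 38, 38 and 45 against 77, 64 and 50. Only 2 of the 12 sympathetic markers, Slc18a2 and Cyb561, passed the filter and were tested, and 0 were called. These were well detected and summed to 24.9 to 33.5 CPM in the CCI rats and 24.8 to 26.0 CPM in the sham rats. Of 9 macrophage markers, 6 were called higher (Cd68, Csf1r, C1qa, C1qb, C1qc and Cx3cr1), beside 2.57% of all rows tested, and 0 passed an adjusted p under 0.05. The 9 markers summed to 122 to 178 CPM in the CCI rats, highest in CCI rat 1, and 82.5 to 104 in the sham rats. Their part in the changes above was not tested. Of 10 lymphocyte markers 9 lay under the filter and were not tested. The one tested, Cd4, which rat macrophages also carry, was called higher (log2 fold change 0.68). None of the 7 satellite glia, 7 Schwann cell, 2 mast cell or 7 endothelial and fibroblast markers tested was called. Of 8 tested skeletal muscle markers 5 were called lower, beside 1.26% of all rows tested, and 0 passed an adjusted p under 0.05. The 8 summed to 9.03 to 25.5 CPM after CCI and 12.3 to 424 CPM after sham surgery. Acta1, Ckm, Mylpf and Actn3 lost the call without sham rat 1, and also without CCI rat 2 or CCI rat 3. All 5, with Tnni2, lost it in both limma fits.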

How the data were processed

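RNA of the ipsilateral DRG was sequenced after ribosomal depletion in 6 libraries. The authors mapped reads to the rat genome V101 with HISAT2 and assembled them with StringTie 1.3.0, per the labels and the paper. They deposited whole-number counts per gene row, without normalization, and FPKM values, in which a count of 0 is listed as 1e-04. The kit keeps strand, but the strand setting of the counting is not given in the sources used here. Rows without a symbol (6849) held 5.37% to 5.72% of counts and were kept.

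Counts were fitted with edgeR 4.0.16 (quasi-likelihood, TMM factors 0.9884 to 1.011) in R 4.3.3, with Benjamini-Hochberg adjustment over all 26663 rows; standard errors are the fold change divided by the square root of F. Alternatives used DESeq2 1.42.0, limma 3.58.1 on log2(FPKM + 0.1) or log2(FPKM + 1), other filters and scaling, a block for replicate number, a summed Npy row and each library left out. Fits were tested on simulated counts. Libraries of a group differed beyond sampling noise (chi-square over its degrees of freedom 57.3 to 84.2), so none was counted as a duplicate. The neuropeptide rows and gene lists were chosen with earlier results of these data known. Named genes are these rows, list genes that passed the limits, the 3 most abundant tested genes of a list (some given only as counts) and the 3 rows closest in pattern. Some further list genes (Vipr2, Adcyap1r1, Pcsk1, Pcsk2, Pam, Chga, Mme, Nefh, Stmn2, Prph, Th and Dbh) were named after their values were seen. One listed marker is not reported here.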

Additional observations from a re-analysis of the deposited data

How the results depend on the processing

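All 5 raised rows passed the unadjusted limits in every fit that held them, with 4 called when Npy and LOC100912228 were summed into 1 row. The count at an adjusted p under 0.05, which was 3, depended more on the choices. It was 5 with DESeq2, which called 432 higher and 319 lower rows in all against 17 and 8, and 0 with a replicate block, where 0 rows of the table passed. Replicate numbers are shared by CCI and sham rats, but same-numbered rats did not deviate together (r = -0.0117, -0.0252 and -0.0605 for numbers 1, 2 and 3), so the block rests on a number alone. With single libraries left out the count ranged from 0, without sham rat 1, to 3. The fold change of Nts ranged from -0.06, without CCI rat 2, to 0.50 with single libraries left out. Of 96 alternative values for single neuropeptide rows, the other 95 kept their direction and their side of the limits.

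Of the genes in the other lists, 13 were called higher and 6 lower. Over all rows tested, 2.57% were called higher and 1.26% lower. The lower count of the lists, 5 of it muscle genes, was 1 with limma on log2(FPKM + 0.1), 0 with limma on log2(FPKM + 1) and 3 to 9 with single libraries left out, lowest without CCI rat 3. Precision is limited by 3 rats a group and, for Nts, Cck and the sham values of Vip, by counts of 0 to 124.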

Other observations

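Of the listed precursors under the expression filter, Pdyn, Ucn and Avp passed the unadjusted limits in the fit without it, and they were picked after their values were seen. That fit called 908 of 35757 rows higher and 465 lower. Pdyn, which encodes prodynorphin, had 111, 49 and 62 counts in CCI rats 1, 2 and 3 and 16, 9 and 12 in sham rats 1, 2 and 3 (log2 fold change 2.65, standard error 0.46, unadjusted p = 0.000707 and adjusted p = 0.137 in the edgeR fit). Ucn, which encodes urocortin, a relative of corticotropin releasing hormone, had 46, 8 and 8 counts in the CCI rats and 3, 0 and 0 in the sham rats (unadjusted p = 0.0224 and adjusted p = 0.446 in the edgeR fit), so that its mean rested mostly on CCI rat 1. In Pdyn and Ucn CCI rat 1 was highest, as in Npy, Gal, Vip and Adcyap1, and the groups did not overlap. The share of 8.63% with every CCI rat above every sham rat covers rows that passed the filter, not Pdyn and Ucn. Avp, which encodes vasopressin, had 0, 15 and 12 counts in the CCI rats and 0 in every sham rat, so that its groups overlapped and CCI rat 1 was not highest (unadjusted p = 0.0438 and adjusted p = 0.547 in the edgeR fit). Crh itself was not called, and its receptors Crhr1 and Crhr2 lay under the filter.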
